A study of Mus musculus with 2 samples.

Results

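Complement is described here by 9 genes, taken by symbol from the 32285 genes counted in both libraries: the C1q chains *C1qa*, *C1qb* and *C1qc*, the components *C2*, *C3* and *Cfb*, the inhibitor *Serping1*, and the receptors *C3ar1* and *C5ar1*. All 9 had counts in both libraries. Live cells were sorted by flow cytometry from tumors of MC38, a colon cancer line of mouse origin, implanted under the skin of female C57BL/6 mice aged 6 to 8 weeks. 1 library was labelled wild type (Lmo7+/+ hosts) and 1 was labelled knockout (Lmo7-/- hosts, a germline deletion), so both genotypes carried the same implanted line. How many mice stood behind a library was not given in the sources used here. With 1 library per genotype there was no replicate and no test between genotypes, and every interval below covers counting error only.

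Complement is a cascade of secreted proteins that marks targets and calls phagocytes. C1q, assembled from 3 chains, binds immune complexes and dying cells and starts the classical pathway, in which C2 is cleaved, while factor B, the product of *Cfb*, plays the matching part in the alternative pathway. Both routes cleave C3, the fragments C3a and C5a act on the receptors encoded by *C3ar1* and *C5ar1*, and C1 inhibitor, the product of *Serping1*, blocks the proteases bound to C1q. Most plasma complement is made in the liver, and C1q in tissues is known as a product of macrophages and related myeloid cells.

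The C1q genes lie side by side on the minus strand of chromosome 4, at chr4:136880129-136898803 of GRCm38, a stretch of 18.7 kb. *Cfb* (chr17:34856374-34862518) and *C2* (chr17:34862604-34898265) are neighbors with 85 bases between them. The annotated gene *Gm20547* overlaps both on the same strand and was not among the genes counted, so the reads of *Cfb* and *C2* that fall in the overlap carry that uncertainty. *C3* lies at chr17:57203970-57228136, *Serping1* at chr2:84765387-84775444, *C3ar1* at chr6:122847138-122856161 and *C5ar1* at chr7:16246743-16259540.

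Of the 9 genes, 5 were in the RefSeq promoter table (GRCm38.p6). The sequence upstream of the start is shown for a C1q chain, for *C3*, whose level differed between the libraries, and for a receptor, 5′ to 3′ on the minus strand (chr4:136886201-136886450, chr17:57228137-57228386 and chr6:122856162-122856407), with matches to 6 motifs in capitals:
C1qb: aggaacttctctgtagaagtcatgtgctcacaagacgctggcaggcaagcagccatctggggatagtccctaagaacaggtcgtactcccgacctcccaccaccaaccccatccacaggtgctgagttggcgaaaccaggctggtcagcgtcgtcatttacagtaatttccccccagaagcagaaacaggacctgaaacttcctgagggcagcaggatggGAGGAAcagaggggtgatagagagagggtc
C3: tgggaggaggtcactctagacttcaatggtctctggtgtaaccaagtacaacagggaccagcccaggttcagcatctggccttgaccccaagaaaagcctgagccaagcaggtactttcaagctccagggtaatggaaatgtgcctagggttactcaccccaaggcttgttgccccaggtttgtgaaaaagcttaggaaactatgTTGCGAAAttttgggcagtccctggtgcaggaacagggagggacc
C3ar1: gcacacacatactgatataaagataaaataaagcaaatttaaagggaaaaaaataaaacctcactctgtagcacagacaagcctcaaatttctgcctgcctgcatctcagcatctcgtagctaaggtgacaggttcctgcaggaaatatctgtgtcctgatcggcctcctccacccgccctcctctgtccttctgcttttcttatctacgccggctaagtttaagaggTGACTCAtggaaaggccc
Both strands were searched, and no match overlapped another. The ETS motif GAGGAA stood at bases -30 to -25 of *C1qb* and, on the other strand, at -42 to -37 of *C1qc*, counted from the most upstream annotated start, and was found in 23.3% of 32851 promoters over 250 bases. The C/EBP motif TTGCNNAA stood at -45 to -38 of *C3* and was found in 9.56% of promoters. The AP-1 motif TGANTCA stood at -18 to -12 of *C3ar1* and was found in 6.75%. The letters of the GAS motif TTCNNNGAA (7.02% of promoters), the ISRE-like motif (GAAA, any 2 bases, GAAA, in 2.98%) and the NF-kB motif (GGGA, any 2 bases, TTCC, in 1.21%) were in none of the 5 windows. Those of *C1qc* (99 bases) and *C5ar1* (48 bases, with none of the 6 motifs) were shorter than the 250 bases behind these shares and cannot be read against them.

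The files held 16208 droplets with 98582479 UMIs in the library labelled Lmo7+/+ and 15163 droplets with 80648345 UMIs in the library labelled Lmo7-/-, against about 10000 sorted cells stated for each. A UMI is a tag that marks 1 captured RNA molecule. A cell was kept from 500 genes and 1000 UMIs upward if mitochondrial genes gave no more than 15% of its UMIs, leaving 13542 and 11860. Their median depth was 4535.5 and 4304.5 UMIs. The libraries shared 279 cell barcodes of 24 bases, of which 21 belonged to cells gated as macrophages in both. *Lmo7* was at 40.4 CPM (18 counts) and 34.7 CPM (12 counts) in endothelial cells of the libraries labelled Lmo7+/+ and Lmo7-/-, and at 1.65 and 1.26 CPM in macrophages. Which bases are deleted is not given in the sources used here, so these counts check neither label, and the libraries are called by their labels throughout. Levels are in CPM, the counts of the summed cells of a class scaled to a total of 1000000 UMIs.

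Each cell was given the class whose marker list it passed, and a class name stands for cells that look like that type by these markers, none of which is a complement gene. Macrophages numbered 3841 and 4308, monocytes 684 and 554, tumor cells 2445 and 1944, T cells 470 and 643, dendritic cells 166 and 123, endothelial cells 94 and 65, fibroblasts 81 and 69, NK cells 52 and 31, and mature dendritic cells 31 and 30. All 12 macrophage markers were present in macrophages, at 7793 and 9187 CPM in sum, and all 10 endothelial markers in endothelial cells, at 9032 and 11247 CPM. Of the macrophages 152 and 141 lay within 25% of the limit of the gate. A further 40.6% and 32.9% of cells passed no gate. Mixed cells made up 1.20% and 1.42% and were left out of the classes. They passed several gates of classes other than tumor, or 1 such gate with at least 3 tumor markers that had a UMI.

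The C1q chains were counted mainly in macrophages. Macrophages carried 87.2% (95% exact binomial interval 87.1 to 87.3) of all C1q UMIs in the kept cells of the library labelled Lmo7+/+, and 88.7% (88.6 to 88.8) in the library labelled Lmo7-/-. Monocytes, gated by *Ly6c2*, *Chil3* and other genes of cells recently arrived from blood, followed with 4.04% and 3.51%. Their gate also asked for macrophage markers, which summed to 3855 and 4343 CPM in them beside 4706 and 3787 CPM of the monocyte markers, so the C1q level of this class is that of cells which carry both sets of markers.

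*C1qa*, the A chain, stood at 1894 CPM (95% exact Poisson interval 1876 to 1912) in macrophages of the library labelled Lmo7+/+ and at 2141 CPM (2121 to 2160) in those of the library labelled Lmo7-/-. In monocytes it stood at 756 and 879 CPM. In the other 7 classes it lay between 12.8 and 70.9 CPM. The order from macrophages to monocytes to the other 7 classes was thus the same in both libraries, and among the 7 lower classes many intervals overlapped. *C1qb*, the B chain, reached 4188 and 4889 CPM in macrophages, 1879 and 2397 CPM in monocytes and at most 148 CPM in the other 7 classes. *C1qc*, the C chain, reached 5081 and 5948 CPM in macrophages, 1764 and 2202 CPM in monocytes and at most 162 CPM in the other 7 classes. Tumor cells held 24.2 and 31.7 CPM of *C1qa* and T cells 63.8 and 44.3 CPM. Neither is known as a source of C1q, and both served as the background for the shares of cells below. Cells that passed no gate, at median depths of 2840 and 3157 UMIs, held more than the tumor cells, with 65.1 and 74.6 CPM of *C1qa*. They held 158 and 210 CPM of *C1qb* and 169 and 214 CPM of *C1qc*. Mixed cells held 768 and 1027 CPM of *C1qa*.

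To compare cells at equal depth, each cell was reduced by random draws to 1500 UMIs, without the cells below that depth (327 and 425 macrophages). After thinning, 89.4% (interval 88.3 to 90.4) and 91.3% (90.4 to 92.2) of macrophages had a *C1qa* UMI, against 95.8% and 96.8% before. *C1qb* was seen in 98.5% and 98.8% and *C1qc* in 98.5% and 98.9% of macrophages. All 3 chains were seen together in 88.5% and 90.5% of macrophages, and none of them in 0.683% and 0.412%. Fewer monocytes had the chains, with *C1qb* in 55.8% (51.7 to 59.7) of those labelled Lmo7+/+ and 69.8% (65.5 to 73.9) of those labelled Lmo7-/-. T cells with a *C1qa* UMI made up 6.39% and 4.09%, and tumor cells 3.41% and 4.31%, at median depths of 2264 and 2308 UMIs and of 13452 and 12601 UMIs before thinning. Without thinning the shares were 10.9% and 6.07% of T cells and 16.8% and 15.7% of tumor cells.

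The 3 chains made up similar parts of the C1q counts in different classes. In macrophages *C1qa* gave 17.0% and 16.5%, *C1qb* 37.5% and 37.7%, and *C1qc* 45.5% and 45.8% of C1q UMIs. In tumor cells the parts were 16.5% and 17.6%, 39.3% and 40.1%, and 44.2% and 42.3%, which lay between macrophages and monocytes for *C1qb* and *C1qc*. Monocytes differed from macrophages beyond counting error in both libraries, with *C1qb* at 42.7% (41.8 to 43.6) and 43.8% (42.8 to 44.7) and *C1qc* at 40.1% and 40.2%.

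**Figure D1:**
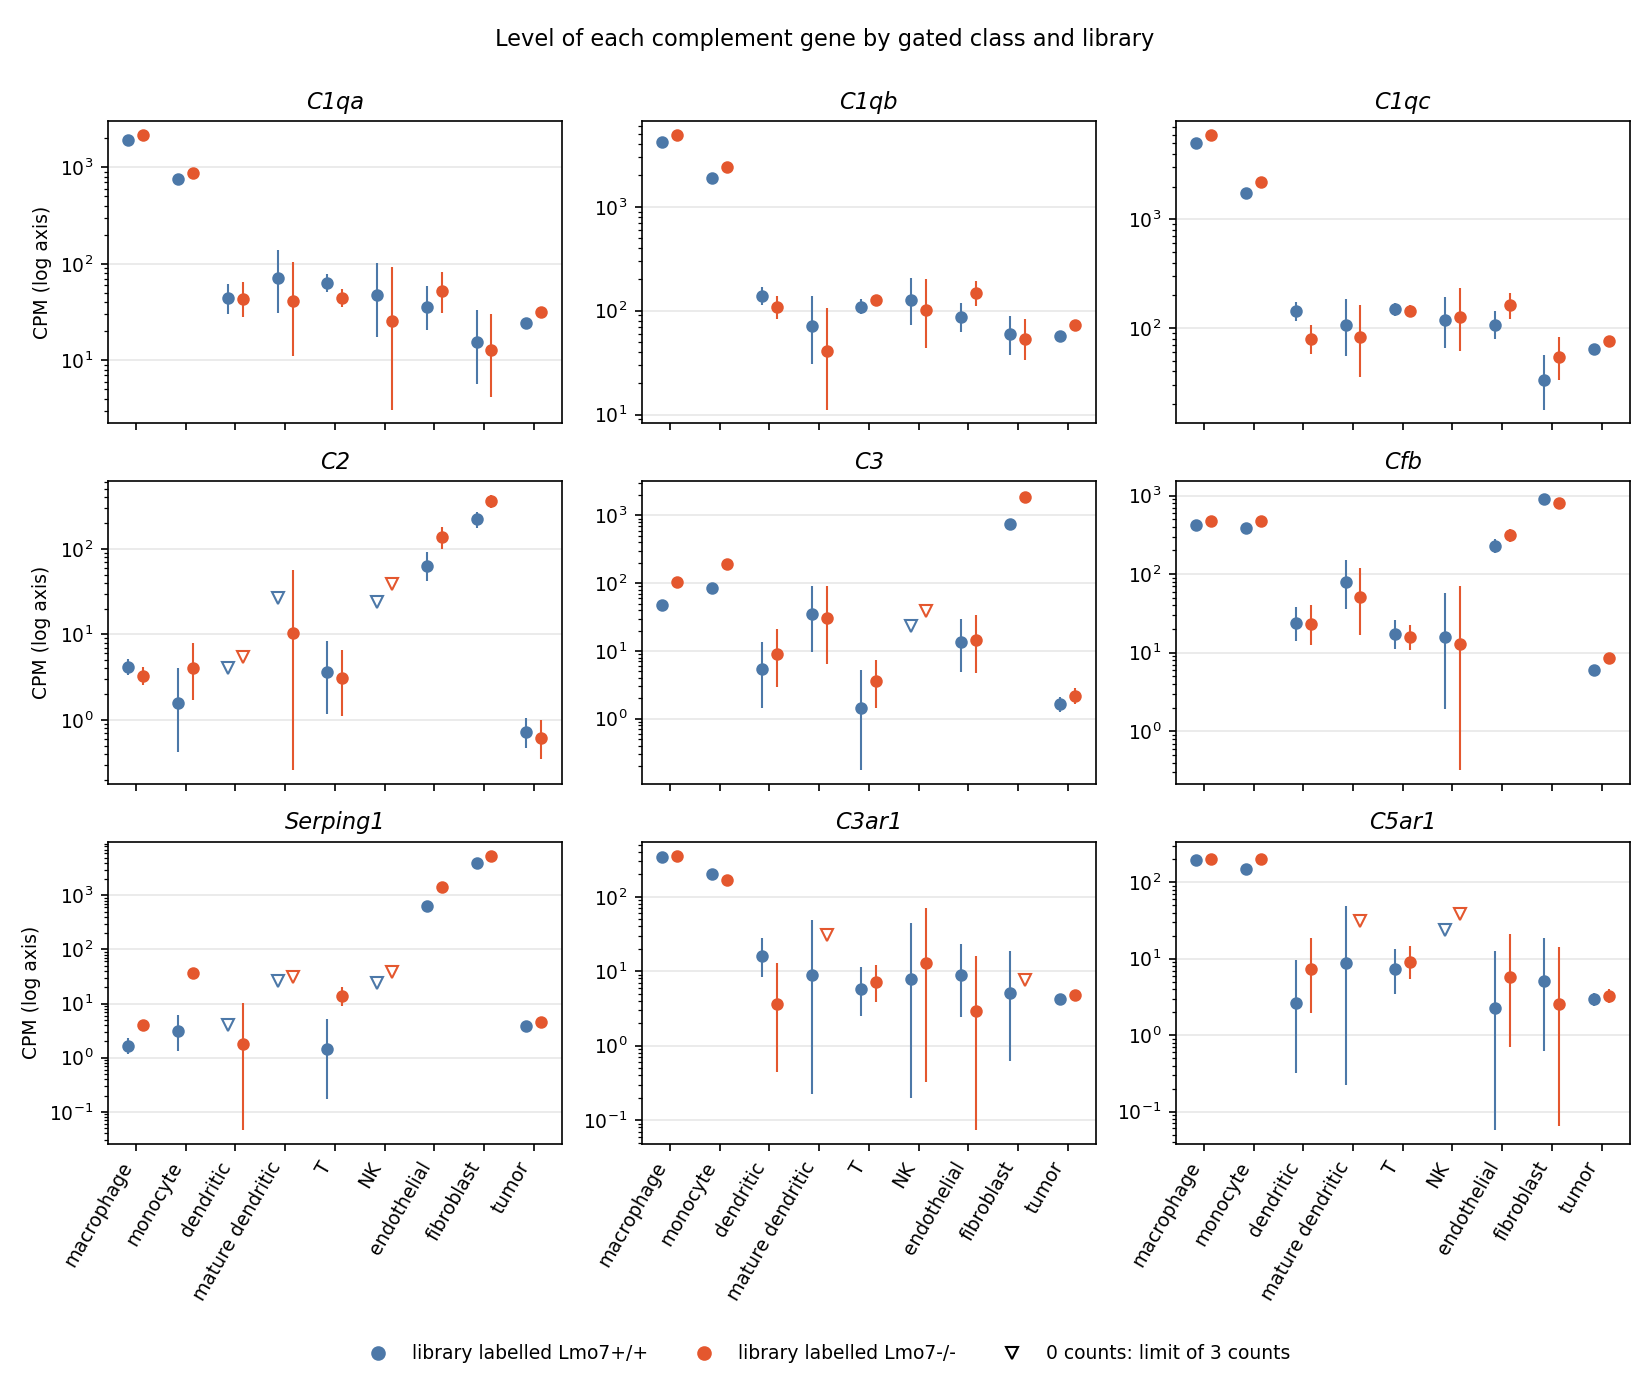
Level of the 9 complement genes in CPM (log axis) in each of 9 gated classes, for the library labelled Lmo7+/+ (blue) and the library labelled Lmo7-/- (orange). Points are summed counts of a class, bars are 95% exact Poisson intervals, and open triangles mark classes with 0 counts at the limit of 3 counts. The C1q chains and both receptors are highest in macrophages and monocytes, while *C2*, *C3*, *Cfb* and *Serping1* are highest in fibroblasts, with *Serping1* at 3974 and 5224 CPM there.

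*C3*, the central component, was highest in fibroblasts, at 761 CPM (677 to 853) and 1855 CPM (1722 to 1996). Monocytes followed with 86.1 CPM (75.1 to 98.2) and 195 CPM (176 to 215), and macrophages with 48.5 CPM (45.6 to 51.5) and 103.5 CPM (99.2 to 107.9). The level was higher in the library labelled Lmo7-/- in each of these classes, and the intervals did not overlap. Endothelial cells stood at 13.5 and 14.5 CPM, T cells at 1.45 and 3.57 CPM and tumor cells at 1.62 and 2.17 CPM. Since macrophages were so many, they still carried 55.4% and 58.5% of all *C3* UMIs, against 15.5% and 19.1% in fibroblasts.

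At equal depth *C3* was seen in 6.37% (5.59 to 7.23) and 12.3% (11.3 to 13.4) of macrophages, in 12.0% and 22.6% of monocytes, and in 37.3% and 61.8% of fibroblasts (intervals up to 50.9% and from 47.7%). T cells gave 0.278% and 0.613% and tumor cells 0.333% and 0.420%, far under the macrophages. Within macrophages *C3* was uneven, and the 10% of cells with the most *C3* held 74.9% and 65.5% of its UMIs, against 28.0% and 28.5% for *C1qa*. The macrophage with the most *C3* held 12 and 14 UMIs, a small part of the 1055 and 2216 counts. In fibroblasts the 10% of cells with the most *C3* held 65.9% and 56.9% of its UMIs, which the Poisson intervals do not cover. A single fibroblast held 48 of 296 and 104 of 722 counts, and without it the level was 672 and 1635 CPM.

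*Cfb*, factor B of the alternative pathway, was spread more widely than *C3*. It stood at 910 CPM (818 to 1010) and 791 CPM (705 to 885) in fibroblasts, at 424 and 480 CPM in macrophages, at 385 and 474 CPM in monocytes and at 227 and 312 CPM in endothelial cells. Macrophages and monocytes could not be put in order in the library labelled Lmo7-/-, where their intervals overlapped. It was at 17.4 and 15.8 CPM in T cells and at 5.95 and 8.63 CPM in tumor cells. At equal depth it was seen in 42.8% and 45.7% of macrophages, 37.0% and 40.5% of monocytes, 39.0% and 50.9% of fibroblasts and 22.0% and 30.9% of endothelial cells, against 1.67% and 1.84% of T cells.

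*C2*, the component cleaved in the classical pathway, was rare in myeloid cells, at 4.18 and 3.27 CPM in macrophages. Fibroblasts held 221 CPM (177 to 273) and 360 CPM (303 to 424), and endothelial cells 62.9 CPM (41.8 to 90.9) and 136 CPM (99.9 to 181). In macrophages its share of cells with a UMI was 0.370% and 0.386%, against 1.39% and 0.613% in T cells (5 and 3 cells) and 0.166% and 0.158% in tumor cells. The macrophage level thus lay above that of tumor cells, at 0.716 and 0.608 CPM, and could not be told from that of T cells, at 3.62 and 3.06 CPM. NK and dendritic cells had 0 counts in both libraries, which for dendritic cells allows up to 4.00 and 5.42 CPM.

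*Serping1*, which encodes C1 inhibitor, was a stromal transcript. Fibroblasts held 3974 CPM (3778 to 4177) and 5224 CPM (4999 to 5456), or 57.2% and 59.5% of all its UMIs. Endothelial cells held 625 CPM (553 to 702) and 1420 CPM (1297 to 1552). At equal depth it was seen in 89.8% and 98.2% of fibroblasts, in 51.2% (39.9 to 62.4) and 76.4% (63.0 to 86.8) of endothelial cells, and in 0.114% and 0.258% of macrophages, which is not above the 0.278% and 0.409% of T cells.

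*C3ar1*, the C3a receptor, was highest in macrophages, at 347 CPM (340 to 355) and 351 CPM (343 to 359). Monocytes held 201 CPM (184 to 219) and 169 CPM (152 to 188). All other classes were at 16.0 CPM or less, and fibroblasts had 2 and 0 counts. *C5ar1*, the C5a receptor, stood at 193 CPM (187 to 199) and 203 CPM (197 to 209) in macrophages and at 150 CPM (135 to 166) and 204 CPM (185 to 225) in monocytes, so the order of these classes held in the library labelled Lmo7+/+ only. All other classes were at 9.17 CPM or less. At equal depth *C3ar1* was seen in 37.0% and 38.2% and *C5ar1* in 23.7% and 24.1% of macrophages, against 1.11% and 0.818%, and 0% (0 of 360 cells, with an exact upper limit of 1.02%, and 1.70% before thinning) and 1.23%, of T cells.

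**Figure D2:**
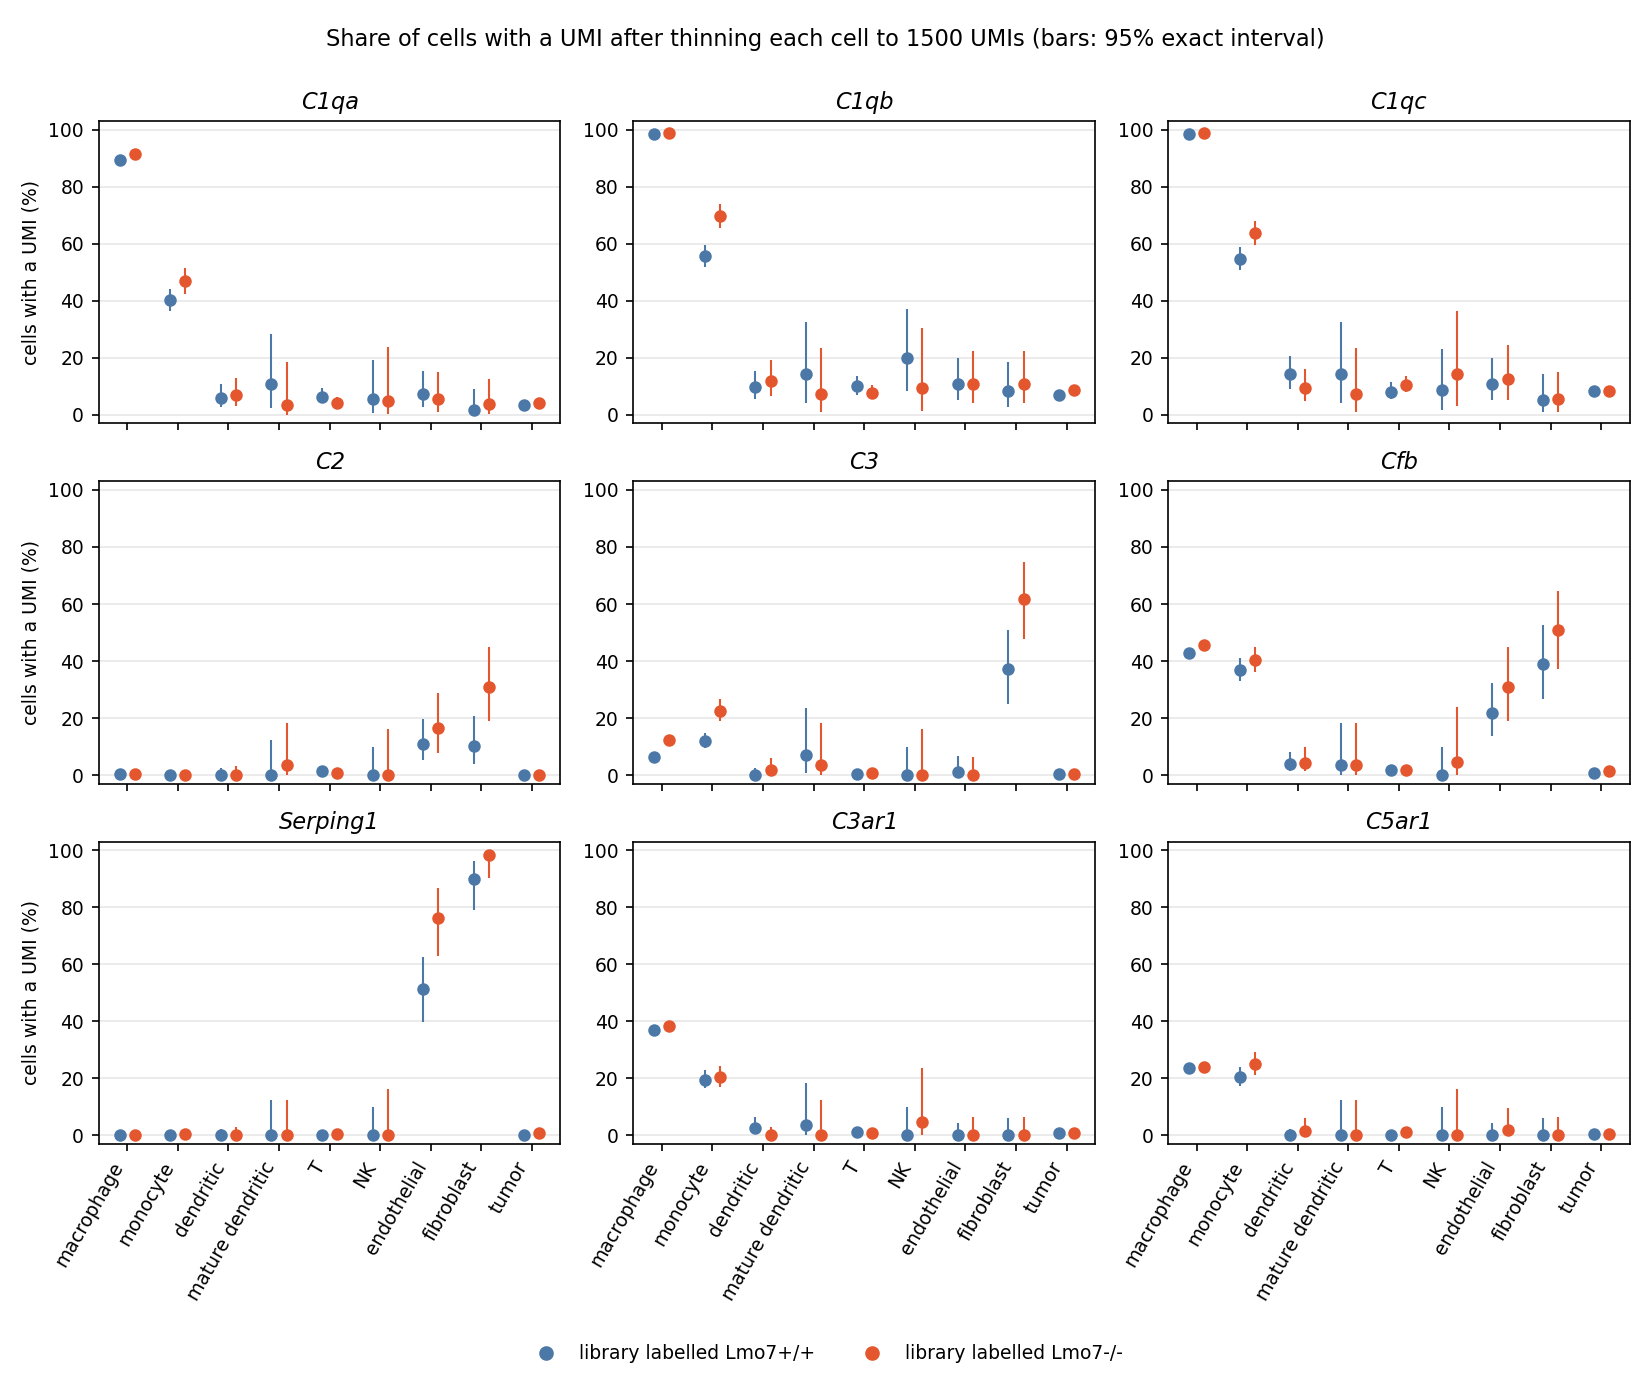
Share of cells with at least 1 UMI of each gene after thinning every cell to 1500 UMIs (vertical axis, percent), in each of 9 gated classes, for the library labelled Lmo7+/+ (blue) and the library labelled Lmo7-/- (orange), with 95% exact binomial intervals as bars. Nearly all macrophages show *C1qb* and *C1qc*, *C3* is seen in 6.37% and 12.3% of macrophages, and *Serping1* is seen mainly in fibroblasts and endothelial cells.

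The libraries were compared within the 4 classes that carried members, by the log2 ratio of CPM, library labelled Lmo7-/- over library labelled Lmo7+/+, with a 95% exact interval of the split of counts. Of all 12557 genes with at least 20 counts in macrophages, 3.85% were 1.5-fold or more higher and 6.15% were 1.5-fold or more lower in the library labelled Lmo7-/-. A gene counted when both libraries together held at least 20 counts of it in the class. Of the 9 members, 2 were higher by that measure, *C3* and *Serping1*, and 0 were lower. The median log2 ratio of the members was 0.18, and that of all genes was -0.11.

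In macrophages the ratio of *C3* was 1.09 (0.99 to 1.20). The C1q chains stood at 0.18 (0.16 to 0.20) for *C1qa*, 0.22 (0.21 to 0.24) for *C1qb* and 0.23 (0.22 to 0.24) for *C1qc*, and *Cfb* at 0.18 (0.14 to 0.22), all above 0 beyond counting error and below 1.5-fold. The receptors stood at 0.01 (-0.03 to 0.06) for *C3ar1* and 0.07 (0.01 to 0.13) for *C5ar1*. *C2*, with 91 and 70 counts, stood at -0.35 (-0.83 to 0.11). *Serping1* stood at 1.31 (0.74 to 1.92) on 36 and 88 counts, of which 37 came from a single cell. Where macrophages also had to lie in a macrophage or monocyte cluster, the ratio of *Serping1* was 0.03. Scaling by TMM added 0.11 to every macrophage ratio.

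In monocytes 6.21% of 9351 genes were 1.5-fold or more higher and 7.2% were lower, and of the 8 members with enough counts 2 were higher, *C3* at 1.18 (0.94 to 1.43) and *Serping1* at 3.56 (2.51 to 4.82). The *Serping1* value rested on 5 cells of the library labelled Lmo7-/-, of which the highest held 52 of 74 counts, and the fibroblast markers summed to 171 and 654 CPM in these monocytes, whose part in the value was not tested. With monocytes kept only where gate and cluster agreed, *Serping1* had under 20 counts and gave no ratio, and the ratio of *C3* was 1.09. *C5ar1* stood at 0.45 (0.24 to 0.65), *Cfb* at 0.30 (0.17 to 0.43), the C1q chains between 0.22 and 0.35, and *C3ar1* at -0.25 (-0.45 to -0.05), or 0.03 as the mean of per-cell CPM. The C1q ratios depended on how monocytes were defined. With classes taken from Louvain clusters they were 0.01 for *C1qa*, 0.18 for *C1qb* and 0.11 for *C1qc*. With a stricter gate they were 0.46, 0.71 and 0.68, and the ratio of *C3ar1* was 0.21.

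In fibroblasts 10.3% of 5040 genes were 1.5-fold or more higher and 16.7% were lower. Of the 6 members with enough counts 3 were higher: *C3* at 1.29 (1.09 to 1.49), *C2* at 0.70 (0.30 to 1.11) and *C1qc* at 0.69 (-0.37 to 1.81) on 13 and 21 counts. *Serping1* stood at 0.39 (0.30 to 0.49) and *Cfb* at -0.20 (-0.43 to 0.02). A single fibroblast held 81 of the 354 *Cfb* counts of the library labelled Lmo7+/+, and as the mean of per-cell CPM the ratio of *Cfb* was 0.36. The C1q chains in fibroblasts were at or below the level of T and tumor cells. The tumor markers summed to 2214 and 365 CPM in the fibroblasts, 8 of 15 with a UMI in each library and 3 and 5 at 5 CPM or more. In tumor cells they summed to 517 and 625 CPM, less than in the fibroblasts of the library labelled Lmo7+/+. Their part in the fibroblast ratios was not tested. Without the cells outside the fibroblast cluster, which left 73 and 66 fibroblasts, *C3* stood at 1.17, *C2* at 0.58 and *C1qc* at -0.014.

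In endothelial cells 11% of 5782 genes were 1.5-fold or more higher and 14.4% were lower. Of the 6 members with enough counts 4 were higher: *Serping1* at 1.19 (0.97 to 1.40), *C2* at 1.11 (0.41 to 1.84), *C1qb* at 0.75 (0.12 to 1.39) and *C1qc* at 0.59 (0.00 to 1.17). The C1q values came from few cells, since the 10% of endothelial cells with the most *C1qc* held 83.3% and 87.5% of its counts, and without the highest cell of each library the ratio of *C1qc* was 0.01. The fibroblast markers summed to 1222 and 2288 CPM in endothelial cells, with 9 of 10 at 5 CPM or more in each library, and moved the same way as *Serping1* and *C2*. Their part in the result was not tested. As the mean of per-cell CPM the ratios were 0.58 for *Serping1* and 0.29 for *C2*.

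**Figure D3:**
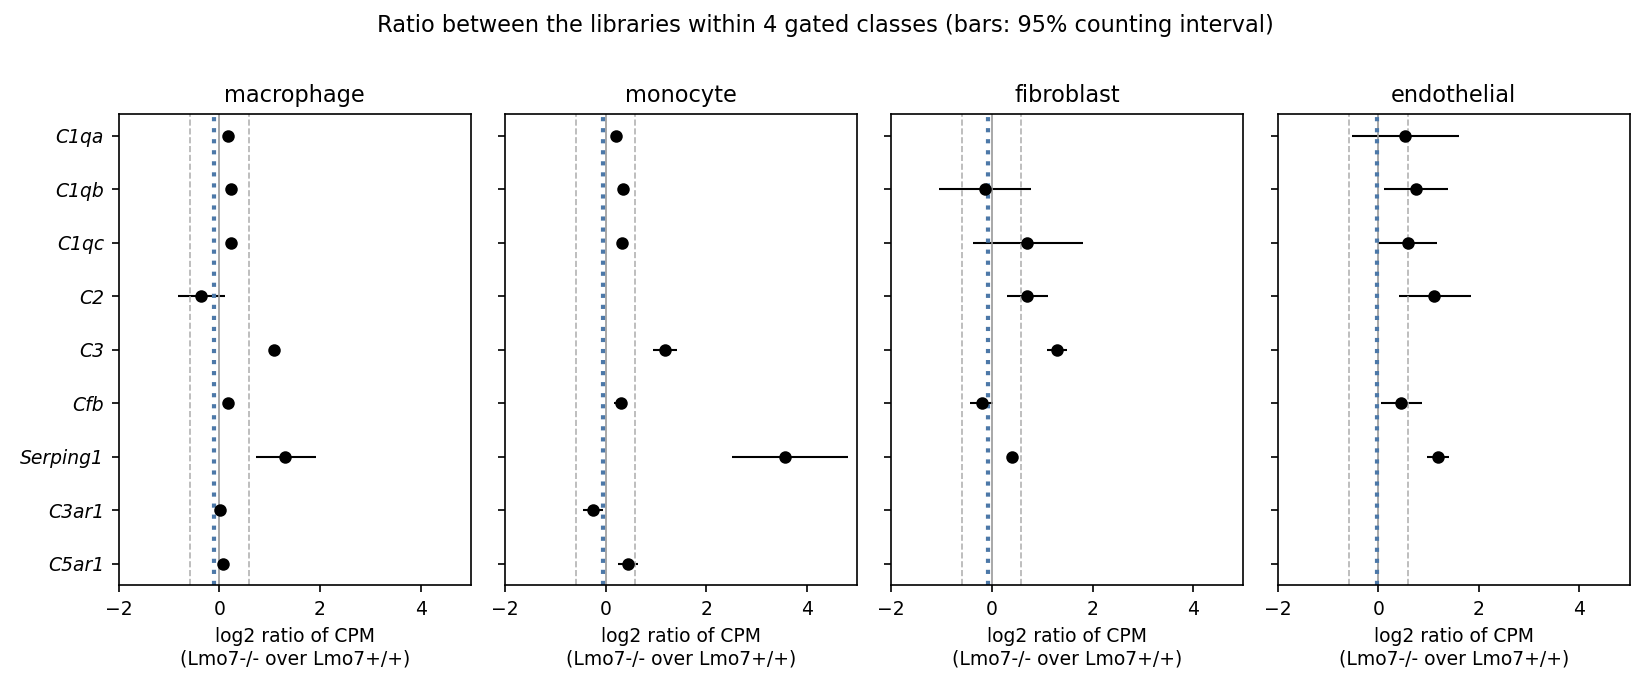
Log2 ratio of CPM (horizontal axis), library labelled Lmo7-/- over library labelled Lmo7+/+, of each complement gene with at least 20 counts in macrophages, monocytes, fibroblasts and endothelial cells. Bars are 95% exact counting intervals, dashed lines mark 1.5-fold, and the dotted line is the median of all genes of that class. *C3* lies at 1.09, 1.18 and 1.29 in the first 3 classes and had too few counts in endothelial cells.

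Macrophages were then split within each library by 7 lists of 6 genes that mark known macrophage states, and the top 25% of cells by the sum of a list were compared with the bottom 25%. Such a split is a range of a score and not a cell type: for the interferon gamma list 241 and 342 cells lay within 10% of the upper limit. Over all genes with at least 100 counts in each library, 3.98% of pairs of a gene and a list were 1.5-fold or more higher in both libraries and 4.38% were lower in both. Of the 49 pairs of a list and a member with enough counts (all but *C2* and *Serping1*), 8 were higher in both and 0 were lower.

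*C3* and *Cfb* made up 7 of these 8 pairs. By the MHC class II list, the genes of antigen presentation to helper T cells, *C3* went from 23.1 to 89.3 CPM in the library labelled Lmo7+/+ and from 57.3 to 168 CPM in the library labelled Lmo7-/-, log2 ratios of 1.95 (1.66 to 2.24) and 1.55 (1.36 to 1.74). *Cfb* went from 257 to 652 CPM and from 293 to 687 CPM, ratios of 1.34 and 1.23. Over all genes, 2.68% were higher by this list.

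By the interferon gamma list (*Cxcl9*, *Gbp2*, *Gbp5*, *Irf1*, *Ciita*, *Cd274*), *C3* was at 27.2 and 87.8 CPM in the lowest and highest cells of the library labelled Lmo7+/+ and at 59.7 and 169 CPM in those of the library labelled Lmo7-/-. The ratio in the library labelled Lmo7+/+ was 1.69 (1.42 to 1.97), and its interval in the other library ran from 1.32 to 1.70. The ratios of *Cfb* were 1.12 and 0.80. Over all genes, 1.66% were higher by this list. *C5ar1* went the other way, with ratios of -0.26 (-0.38 to -0.13) and -0.38 (-0.50 to -0.25).

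By the Ccl8 list, which marks a tissue-resident-like program with *Folr2* and *Selenop*, the ratios were 1.36 and 1.64 for *C3*, 0.83 and 0.80 for *Cfb*, 0.63 and 0.67 for *C1qa* and 0.77 and 0.52 for *C5ar1*. Over all genes, 4.09% were higher by this list. By the type I interferon list *Cfb* stood at 0.62 and 0.59, where 1.87% of all genes were higher, and *C3* at only 0.44 and 0.15. By the Arg1 list *C3* stood at 0.56 and 1.10 and *C5ar1* at 0.32 and 0.54, where 4.55% of all genes were higher.

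The C1q chains followed the MHC class II and Ccl8 lists moderately. By MHC class II *C1qa* stood at 0.55 and 0.78, *C1qb* at 0.38 and 0.57 and *C1qc* at 0.39 and 0.65. All 3 chains were below 0 in both libraries by the proliferating list, between -0.31 and -0.22, and by the monocyte-derived list, between -0.48 and -0.30. *C3*, *Cfb*, *C3ar1* and *C5ar1* were also below 0 in both libraries by both lists, so this was not particular to the C1q chains. By the proliferating list *C3* stood at -0.43 and -0.43 and *Cfb* at -0.49 and -0.34. By the monocyte-derived list *C3* at -0.05 (library labelled Lmo7+/+) and *C5ar1* at -0.02 (library labelled Lmo7-/-) lay within counting error. Over all genes 10.7% and 2.33% were 1.5-fold or more higher by these lists, and the shares below 0 are not given here. For the second of them 71.0% and 76.6% of macrophages had no UMI, so its groups were in part drawn at random among cells at 0. The depth of the groups differed most by the proliferating list, with medians of 3977 and 6296 UMIs in the lowest and highest cells of the library labelled Lmo7+/+.

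**Figure D4:**
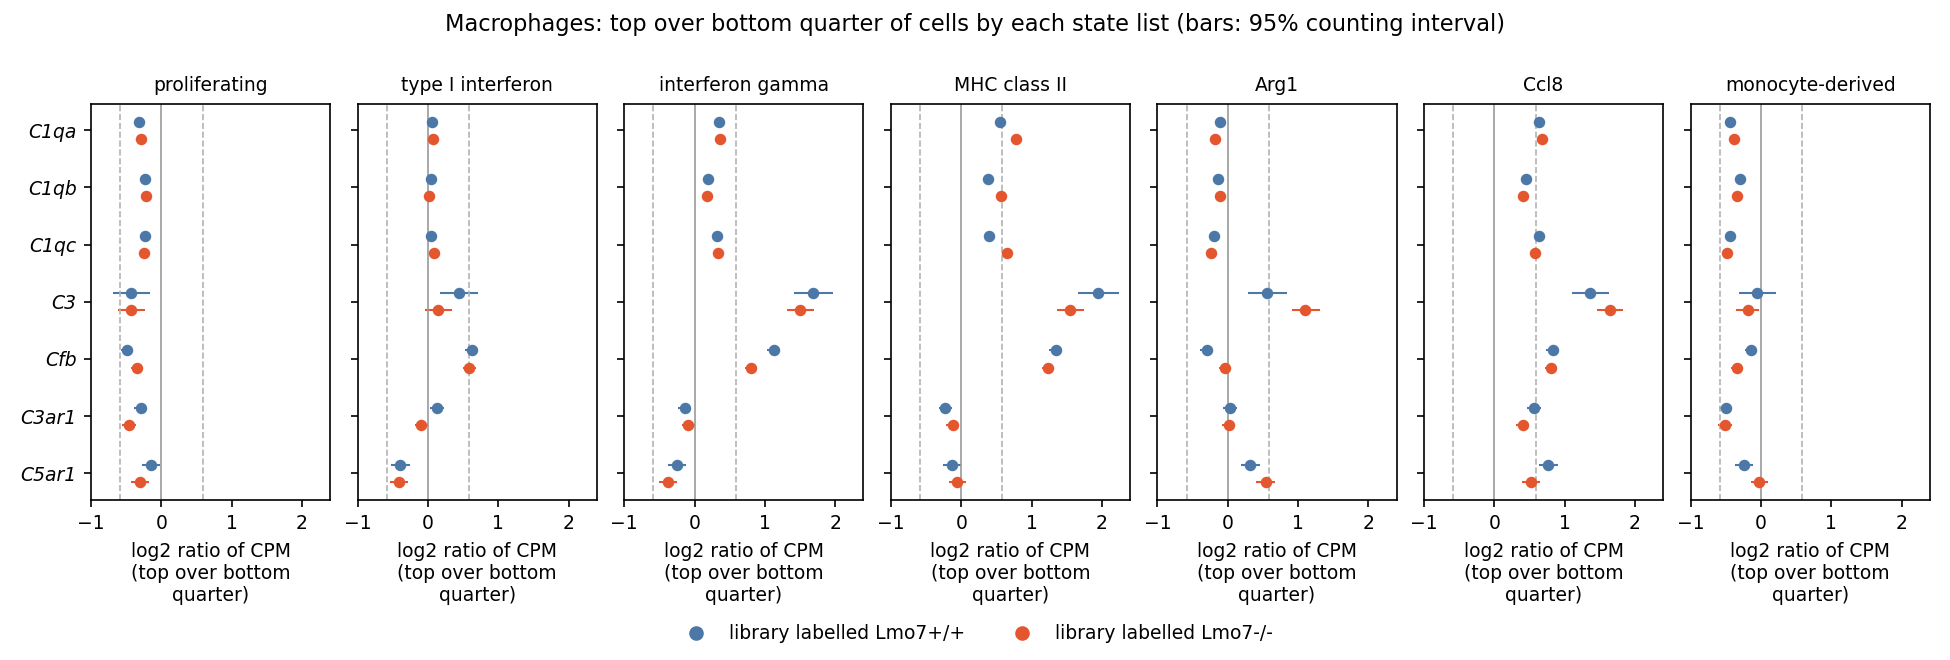
Log2 ratio of CPM (horizontal axis) between the top and the bottom 25% of macrophages by the sum of each of 7 state lists, for 7 complement genes, in the library labelled Lmo7+/+ (blue) and the library labelled Lmo7-/- (orange), with 95% exact counting intervals and dashed lines at 1.5-fold. *C3* and *Cfb* lie above 1.5-fold in both libraries by the interferon gamma, MHC class II and Ccl8 lists.

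The interferon gamma list itself was higher in the library labelled Lmo7-/-, at 2512 against 1305 CPM in macrophages, 2686 against 1503 in monocytes, 3132 against 1330 in fibroblasts and 5959 against 3835 in endothelial cells. Macrophages of both libraries were therefore placed in 4 bins of this list, with limits set over both libraries, a split added after the data were seen. From the lowest to the highest bin *C3* stood at 31.7, 37.2, 48.6 and 122 CPM in the library labelled Lmo7+/+ and at 51.3, 78.3, 86.4 and 149 CPM in the library labelled Lmo7-/-. The ratio between the libraries was 0.69 (0.38 to 1.00), 1.07 (0.83 to 1.32), 0.83 (0.60 to 1.06) and 0.29 (0.12 to 0.47), above 0 in each bin and smallest in the highest. *Cfb* stood at 0.09 (-0.03 to 0.20), -0.11 (-0.20 to -0.03), -0.07 (-0.15 to 0.01) and -0.19 (-0.27 to -0.11) in the same bins, against 0.18 over all macrophages. *C1qb* stood at 0.23, 0.20, 0.12 and 0.14. In 4 bins of the MHC class II list, which summed to 27821 and 39932 CPM in macrophages, *C3* stood at 1.13, 0.71, 0.65 and 0.57 and *C1qa* at -0.10, 0.02, 0.03 and 0.09. In these bins *C1qb* stood at 0.01, 0.10, 0.12 and 0.20 (0.17 to 0.23 in the highest). For *C1qc* the values were -0.01, 0.05, 0.13 and 0.21 (0.19 to 0.24 in the highest).

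**Figure D5:**
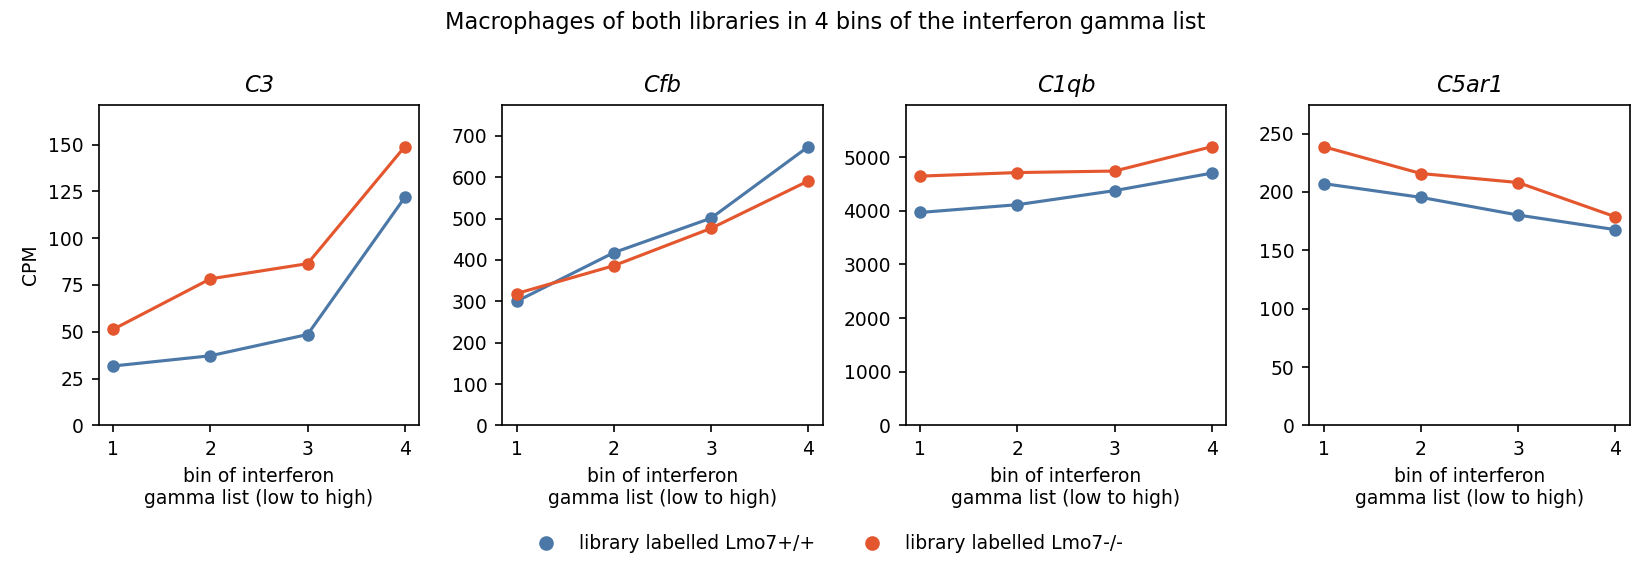
Level in CPM (vertical axis, from 0) of *C3*, *Cfb*, *C1qb* and *C5ar1* in macrophages placed in 4 bins of the interferon gamma list, from low to high, for the library labelled Lmo7+/+ (blue) and the library labelled Lmo7-/- (orange). Each point is the summed counts of a bin, with no error bar. *C3* is higher in the library labelled Lmo7-/- in every bin, 149 against 122 CPM in the highest. *Cfb* is lower in that library in the upper 3 bins, though within counting error in bin 3.

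Of 45 other complement genes, 22 had at least 100 counts in the kept cells, and 9 of these were highest in fibroblasts in both libraries. Among the components and starters, fibroblasts led for *C1ra* and *C1s1*, the proteases that bind C1q, at 558 and 755 CPM and at 664 and 1110 CPM. *C4b*, cleaved by those proteases, was at 466 and 804 CPM in fibroblasts and at 106 and 159 CPM in macrophages. *Hc*, which encodes C5, and the collectin gene *Colec12* were also highest in fibroblasts, at 20.6 and 38.5 CPM and at 139 and 134 CPM. *Cfp*, properdin, was myeloid, at 226 and 262 CPM in macrophages and 216 and 286 CPM in monocytes. *C6*, of the membrane attack complex, was at 13.3 and 25.5 CPM and *Fcna*, ficolin A, at 11.8 and 7.47 CPM in macrophages, and *Masp1*, of the lectin pathway, at 12.9 and 48.8 CPM in fibroblasts.

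Among the regulators, *Cd55* and *Cd59a*, which protect host cells, were highest in fibroblasts, at 30.9 and 33.4 CPM and at 36.0 and 110 CPM. *Clu*, clusterin, was highest in endothelial cells, at 317 and 179 CPM, and *Cr1l*, which encodes the rodent regulator Crry, was spread over classes, at 68.5 and 78.3 CPM in macrophages and 106 and 113 CPM in endothelial cells. Among receptors and binding proteins, *Itgam* and *Itgb2*, which form complement receptor 3, were highest in monocytes, at 606 and 605 CPM and at 724 and 920 CPM, and *Itgax*, of complement receptor 4, in macrophages, at 831 and 942 CPM. *C5ar2*, the second C5a receptor, was at 15.3 and 12.7 CPM in macrophages. *Cd93* was highest in endothelial cells at 964 and 1310 CPM, *Lrp1* in fibroblasts at 473 and 650 CPM, and *C1qbp* and *Calr* in tumor cells at 143 and 147 CPM and at 1739 and 1651 CPM.

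Between the libraries, 4 of 22 other complement genes with at least 20 counts in macrophages were 1.5-fold or more higher (*C1s1*, *C6*, *Cd59a* and *Masp1*) and 2 were lower (*Clu* and *Fcna*), with a median log2 ratio of 0.13, beside 3.85% and 6.15% of all genes. *C1s1* had 50 and 98 counts there and *Masp1* 15 and 58. In fibroblasts 6 of 14 were higher (among them *C1s1*, *C4b* and *Cd59a*) and 1 was lower (*Clu*), with a median of 0.45, beside 10.3% and 16.7% of all genes. In monocytes 2 of 14 were higher (*C1ra* and *C1s1*), where 6.21% of all genes were higher. Both are highest in fibroblasts, and the fibroblast markers, at 171 and 654 CPM in monocytes, moved the same way, whose part in these values was not tested. In endothelial cells 0 of 11 were higher and 3 were lower (*C1qbp*, *Clu* and *Itgb2*), beside 11% and 14.4% of all genes. *C6* in macrophages stood at 0.94 (0.74 to 1.16) and *C4b* in fibroblasts at 0.79 (0.52 to 1.06). *C4b* in macrophages, at 0.58 (0.51 to 0.66), was just under 1.5-fold.

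Over the 18 points given by 9 classes in 2 libraries, the members fell into patterns of level. Pearson's r of log2(CPM + 1) was 0.97 to 0.99 among the C1q chains and 0.85 between *C3ar1* and *C5ar1*, 0.93 between *C2* and *Serping1*, 0.89 between *C3* and *Cfb*, and -0.27 between *C1qa* and *Serping1*. The 18 points share libraries and differ widely in depth, and r is given as a description. Of 12411 other genes with at least 200 counts, those most like *C1qa* were *Tlr8* (r = 0.96), *Mag* and *Bach2os*, and those most like *C3ar1* were *Apoe* (0.93, one of the macrophage markers), *Itgam* and *Lair1*. *C5ar1* was followed by *Sirpb1c* (0.97), *Msr1* and *Snx2*, and *Serping1* by *Sulf1* (0.98), *Eln* and *Mgp*, genes of the extracellular matrix or its remodeling. *Nfkbiz*, which encodes a nuclear regulator of NF-kB target genes, was the gene most like both *C3* (0.89) and *Cfb* (0.90), followed by *Dram1* and *Sptlc2* for *C3* and by *Pxdc1* and *Ctsb* for *Cfb*.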

How the data were processed

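Single-cell RNA-seq (10x) was read from 2 libraries, 1 per genotype as labelled. The authors deposited raw UMI counts per gene and droplet, with no normalization. Their notes name Cell Ranger 2.1.1 and the mouse build mm10, and their methods name Seurat without numeric limits. Gene counts and droplet barcodes were used as deposited.

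The limits on cells were 500 genes, 1000 UMIs and 15% of UMIs from mitochondrial genes. A cell took the class whose marker list reached a minimum CPM and number of markers (macrophages 2000 CPM and 3 of 12 markers, monocytes 1200 CPM and 2 of 10, T cells 1500 CPM and 3 of 10, endothelial cells 1500 CPM and 3 of 10, fibroblasts 40000 CPM and 5 of 10, tumor cells 100 CPM and 2 of 15). These limits were set after the levels of the lists over clusters were seen, and 12 classes were gated, of which 9 held at least 50 cells over both libraries. Monocytes also had to pass 1000 CPM and 2 markers of the macrophage list. Doublets were kept in the main values, and removal of the 2.90% and 2.60% of cells called by Scrublet (scanpy 1.11.5) was an alternative.

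Counts were summed per class and library and divided by the class total. Intervals are 95% exact Poisson for CPM and exact binomial otherwise, where a ratio used how its counts were split between the libraries (scipy 1.17.1). They cover counting error only, and the limit that 0 counts allow was set at 3 counts. A log2 ratio needed at least 20 counts over both libraries, and 1.5-fold was the size named. No test between genotypes was possible with 1 library per group. State groups needed 100 counts in each library. The code was checked on simulated counts.

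Alternatives were other cell filters, doublets removed, Louvain clusters (resolution 1, 2000 variable genes, 30 components, 20 neighbours, 21 clusters), a stricter gate, TMM scaling (edgeR 4.0.16 in R 4.3.3), other totals, folds and thinning depths. Added after the data were seen were cells where gate and cluster agreed, classes without the highest cell of each library, and the bins of macrophages.

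Named genes were the 9 members, other complement genes of a list of 45 with at least 100 counts, and the 3 genes most like each of 6 members. Not every gene of the list is reported here by name. The members and lists were chosen with earlier results of these data known.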

Additional observations from a re-analysis of the deposited data

Results flagged for a closer look

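Neutrophils were nearly absent from the kept cells, and the comparisons above leave them out. Under a lenient filter of at least 200 genes and 500 UMIs, 18 and 4 droplets passed the neutrophil markers, with a median of 907 UMIs. They held 28 counts of *C5ar1*, or 941 CPM (95% exact Poisson interval 625 to 1360), against 193 and 203 CPM in macrophages. In these droplets a count of 0 allows up to 101 CPM. The same droplets held 10 counts of *C3* (336 CPM, 161 to 618) and 0 counts of *C3ar1* and *Cfb*.

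The log2 ratio of *C1qa* between the libraries was -0.53 (-0.97 to -0.08) in T cells, on 88 and 87 counts, while it was 0.18 in macrophages and 0.39 in tumor cells. In the same T cells *C1qb* stood at 0.21 (-0.09 to 0.51) and *C1qc* at -0.04 (-0.31 to 0.22). The ratio of *C1qc* was -0.84 (-1.38 to -0.32) in dendritic cells, on 107 and 44 counts, while it was 0.23 in macrophages and 0.32 in monocytes. In the same dendritic cells *C1qa* stood at -0.02 (-0.84 to 0.78) and *C1qb* at -0.36 (-0.84 to 0.12). Both levels are near the background of C1q, and the difference between classes was not tested.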

How the results depend on the processing

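No paired analysis was possible because each genotype had 1 library. Of the 9 members 2 were 1.5-fold or more higher in macrophages, and the count was 1 (*C3* alone) with the stricter gate (no more than 1 UMI of any other class), with the mean of per-cell CPM and where gate and cluster agreed. Over the 4 classes 11 ratios were past 1.5-fold, against 6 with the stricter gate, 6 with the mean of per-cell CPM and 5 where gate and cluster agreed. The share of C1q UMIs in macrophages, 87.2% and 88.7%, was 86.6% and 87.9% with the lenient filter, 87.9% and 89.4% with the strict filter, 88.8% and 90.0% with doublets removed, 80.3% and 84.8% with Louvain clusters, and 25.3% and 26.9% with the stricter gate, which keeps fewer cells. Thinning to 1000 UMIs gave *C1qa* in 79.8% and 83.6% and *C3* in 4.04% and 9.40% of macrophages. The ratio of *C1qc* in fibroblasts turned to -0.014 where gate and cluster agreed. The ratio of *C3* ranged from 1.07 to 1.29 in macrophages, 0.77 to 1.22 in monocytes and 1.17 to 3.54 in fibroblasts over 10 alternatives, past 1.5-fold in each. That of *Serping1* in macrophages ranged from 0.03 to 1.82. Of the single ratios under each alternative, 234 moved by less than their counting interval and 41 by more. The stricter gate left 8 and 5 fibroblasts and 7 and 7 endothelial cells, too few for most members.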
